A study of Mus musculus with 8 samples.

Results

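The Cyp3a family is described here across mouse liver libraries, as the 9 of 25124 gene rows whose symbol is Cyp3a11, Cyp3a13, Cyp3a16, Cyp3a25, Cyp3a41a, Cyp3a41b, Cyp3a44, Cyp3a57 or Cyp3a59. The members were taken by name, but the family was chosen with earlier results of these data known. Counts of its members called therefore describe these data and are not a blind test. Total RNA from livers of C57BL/6 mice was sequenced (RNA-seq), as was RNA made in a run-on reaction by engaged polymerases in isolated liver nuclei (GRO-seq, a measure of nascent transcription). RNA-seq covered wild-type mice given vehicle or GW4064, a synthetic agonist of the bile acid receptor FXR (Nr1h4), at 30 mg/kg for 1 h after an overnight fast, with 2 libraries per treatment that each pooled liver RNA from 2 mice. GRO-seq covered the same treatments and time in 2 genotypes, with 1 column of values each, and so without replicates. A legend in the study speaks of more than 1 GRO-seq sample per group, and whether a column holds 1 library or a pool is not given in the sources used here.

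The GRO-seq control genotype is called WT in the labels and Fxr-Flox in the study's methods, and is written Flox here. The other genotype is labelled FXR KO. The methods describe liver knockouts made by crossing Fxr-Flox mice with Albumin-Cre mice. This Cre acts in hepatocytes, and liver cells in which it does not act keep FXR. The study's legends give male mice for both assays. The vehicle is DMSO in the labels and corn oil in the methods, and ages are not given in the sources used here. Values are RPKM, reads per kilobase of gene row scaled to the depth of the library. A row spans the whole gene with its introns, so the RNA-seq values are not of mature mRNA alone. For RNA-seq the study describes total RNA freed of ribosomal RNA, while its library methods also name polyadenylated mRNA libraries.

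Cyp3a enzymes are haem-containing cytochromes P450 of the endoplasmic reticulum that oxidise drugs, steroids and bile acids, and in liver they are made by hepatocytes. Their genes are textbook targets of PXR (Nr1i2) and CAR (Nr1i3), receptors for foreign compounds that bind DNA with the shared partner RXR. FXR binds DNA with the same partner and induces Nr0b2, which encodes the repressor SHP. Cyp3a11 is the member most used as a readout of PXR, while Cyp3a16, Cyp3a41a, Cyp3a41b and Cyp3a44 are known mostly from the livers of young or female mice.

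Depth, rebuilt from the RPKM values, was 13924464 to 14047234 reads per RNA-seq library. In GRO-seq it was 14173765 and 10593314 reads for Flox and 5141668 and 5069400 reads for FXR KO, which makes the FXR KO values the less precise. The hepatocyte markers Apoa1, Alb and Tat were high in all 8 libraries, and the sum over 6 hepatocyte markers was 314 to 359 RPKM in RNA-seq and 503 to 883 RPKM in GRO-seq. In GRO-seq, Nr0b2 went from 3.65 to 36.6 RPKM with GW4064 in Flox, and stood at 0.118 RPKM (2 reads) and 1.19 RPKM (20 reads) in the libraries labelled FXR KO. The density over the whole Nr1h4 row was 15.1 and 4.23 RPKM in Flox and 16.7 and 20.6 RPKM in FXR KO. A deletion of some exons need not lower that density, so it does not check the genotype.

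Of the 9 genes, 8 lie in a cluster of 768 kb on mouse chromosome 5 (mm10, chr5:145345269-146113283), in the order Cyp3a57, Cyp3a16, Cyp3a41b, Cyp3a41a, Cyp3a44, Cyp3a11, Cyp3a25 and Cyp3a59. Cyp3a57 and Cyp3a59, the outermost genes, are on the plus strand, and the other 6 are on the minus strand. Cyp3a13 lies on the minus strand 7.42 Mb before the cluster, at chr5:137892933-137921619. No member's row overlaps another row of the table, and the gaps between neighbours in the cluster are 45.4 to 109 kb.

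The promoters are shown because near-identical ones belong to genes at very different levels, as reported below. Each run is the 250 bases before the RefSeq start site, 5′ to 3′ on the gene's strand (GRCm38.p6), and all 9 members were matched. Capitals mark AGGTCA, a hexamer bound by many nuclear receptors, or its complement TGACCT. The runs are chr5:146009618-146009867 (minus strand) for Cyp3a25, chr5:146079008-146079257 (plus) for Cyp3a59, chr5:145345019-145345268 (plus) for Cyp3a57, chr5:145879855-145880104 (minus) for Cyp3a11, chr5:145805875-145806124 (minus) for Cyp3a44 and chr5:137921620-137921869 (minus) for Cyp3a13.
Cyp3a25: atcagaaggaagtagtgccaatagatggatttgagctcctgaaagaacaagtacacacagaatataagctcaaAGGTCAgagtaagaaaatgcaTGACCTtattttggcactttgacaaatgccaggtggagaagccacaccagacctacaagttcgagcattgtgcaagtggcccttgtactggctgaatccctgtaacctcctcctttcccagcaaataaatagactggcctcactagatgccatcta
Cyp3a59: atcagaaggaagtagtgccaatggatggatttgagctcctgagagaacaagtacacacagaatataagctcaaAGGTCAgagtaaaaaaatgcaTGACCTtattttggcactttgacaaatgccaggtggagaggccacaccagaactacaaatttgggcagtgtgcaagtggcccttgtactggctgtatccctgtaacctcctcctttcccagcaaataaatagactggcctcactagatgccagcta
Cyp3a57: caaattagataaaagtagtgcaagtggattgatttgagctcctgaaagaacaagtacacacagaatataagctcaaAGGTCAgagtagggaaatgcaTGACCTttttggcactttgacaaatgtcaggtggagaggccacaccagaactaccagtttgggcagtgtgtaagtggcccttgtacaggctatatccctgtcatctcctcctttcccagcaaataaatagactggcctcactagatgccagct
Cyp3a11: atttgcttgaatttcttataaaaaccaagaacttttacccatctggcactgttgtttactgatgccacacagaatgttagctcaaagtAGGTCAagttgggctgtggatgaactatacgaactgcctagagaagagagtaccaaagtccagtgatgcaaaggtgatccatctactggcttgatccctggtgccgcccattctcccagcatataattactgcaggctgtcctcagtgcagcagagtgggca
Cyp3a44: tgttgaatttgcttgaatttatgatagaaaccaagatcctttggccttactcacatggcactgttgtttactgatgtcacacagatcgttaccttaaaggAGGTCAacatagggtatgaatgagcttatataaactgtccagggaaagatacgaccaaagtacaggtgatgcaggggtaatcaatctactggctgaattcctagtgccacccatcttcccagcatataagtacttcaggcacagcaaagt
Cyp3a13: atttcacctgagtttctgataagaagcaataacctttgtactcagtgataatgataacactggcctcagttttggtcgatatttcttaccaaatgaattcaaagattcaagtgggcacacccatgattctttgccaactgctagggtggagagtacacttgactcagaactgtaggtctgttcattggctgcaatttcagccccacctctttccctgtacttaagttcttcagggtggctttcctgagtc

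The promoters of Cyp3a25, Cyp3a59 and Cyp3a57 were 88.1% to 95.6% identical to each other, with Cyp3a25 and Cyp3a59 the closest pair. Each of these 3 held AGGTCA and, 15 bases further on, TGACCT, the same hexamer in the opposite orientation. That arrangement, AGGTCANNNNNNNNNNNNNNNTGACCT, stood in 5 of 32851 mouse promoter windows of this length, of which these genes are 3. It spanned bases -177 to -151 from the start site in Cyp3a25 and Cyp3a59 and bases -174 to -148 in Cyp3a57.

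A second group held Cyp3a16, Cyp3a41a, Cyp3a41b and Cyp3a44, whose promoters were 91.3% to 99.6% identical to each other and 72.45% to 76.6% identical to that of Cyp3a11. AGGTCA occurred in the Cyp3a11 window at bases -162 to -157 and in the Cyp3a44 window at -150 to -145, on the plus orientation of the gene. The related hexamer AGTTCA stood in the windows of Cyp3a11, Cyp3a41a and Cyp3a41b. The Cyp3a13 promoter was at most 58.0% identical to any other member's and held neither hexamer.

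On either strand, AGGTCA occurred in 14.0% of all promoter windows and in 5 of the 9 members, and AGTTCA in 11.8% of windows and in 3 members. The everted repeat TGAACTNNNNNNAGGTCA was in no window, the direct repeat AGGTCANAGGTCA in 11 windows and the inverted repeat AGGTCANTGACCT in 2 windows, none of them of a member. AGGTCANNNNNNNNNNNNNNNTGACCT was chosen after the sequences were seen, and each longer motif contains at least 1 of the hexamers. These matches describe letters in 250 bases and not bound sites.

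Levels separated the family into 4 detected genes and 5 genes near 0. Cyp3a25, Cyp3a11, Cyp3a13 and Cyp3a59 passed the filter on low values, a mean of 0.5 RPKM or more, in both assays. Cyp3a16, Cyp3a41a, Cyp3a41b, Cyp3a44 and Cyp3a57 did not exceed 0.059 RPKM in any library, and together gave 4 to 31 reads per library. Cyp3a57 was near 0 although its promoter is of the type of Cyp3a25 and Cyp3a59, which were detected. The 4 genes of the other promoter group were all near 0, and Cyp3a11, whose promoter is less like theirs, was detected.

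**Figure D1:**
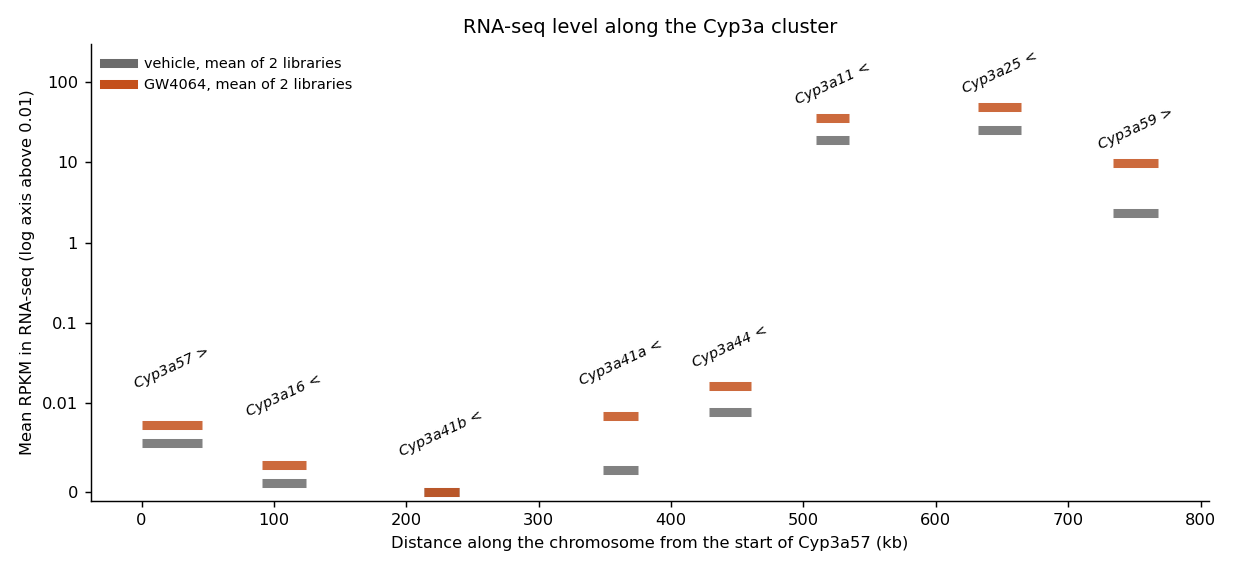
Mean RNA-seq level (RPKM, log axis above 0.01 and linear below) of the 8 cluster genes against distance in kb from the start of Cyp3a57. Each bar spans a gene row, grey for vehicle and orange for GW4064 (means of 2 libraries each), and the arrowhead after a name points to the end the gene is read towards. The 3 rightmost genes lie between 2.36 and 49.4 RPKM and the other 5 at or under 0.016 RPKM.

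Among the genes near 0, Cyp3a57 gave 0 to 7 reads per RNA-seq library and 11 to 17 reads per GRO-seq library. Cyp3a44 gave 2 to 8 reads in RNA-seq and 0 to 7 in GRO-seq, and Cyp3a16 gave 0 to 2 reads in RNA-seq and 1 to 10 in GRO-seq. Cyp3a41a gave 0 to 4 reads in all 8 libraries, and Cyp3a41b was at 0 in all 8. For Cyp3a41b a count of 0 allows up to 3 reads per library, which is 0.00812 to 0.0227 RPKM.

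Reads of the Cyp3a41 genes cannot be assigned with confidence, since their transcripts were 99.7% identical and 90.8% of the 100-base windows of Cyp3a41a occur in another member. The deposited row of Cyp3a41a also lists 2 genomic copies. How reads with several matches were counted is not given in the sources used here. For the detected members the overlap was smaller, at 5.58% of 100-base windows for Cyp3a25 and 5.61% for Cyp3a59, which share them with each other, 0.312% for Cyp3a11 and 0 for Cyp3a13. At 80 bases, the GRO-seq read length, the shares were 9.16% for Cyp3a25, 9.21% for Cyp3a59, 2.91% for Cyp3a11 and 0 for Cyp3a13. These windows are of spliced transcripts, so overlap in the introns, which the gene rows include, was not measured. Counting intervals and floors given here cover counting error only.

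The order of levels in vehicle RNA-seq was Cyp3a25, Cyp3a11, Cyp3a13 and Cyp3a59. Cyp3a25 measured 24.8 and 26.2 RPKM in the vehicle libraries and ranked 108 and 93 among 23772 rows of at least 300 bases. Such ranks are of density over whole gene rows with their introns, and not of mature transcripts. Cyp3a11 measured 17.5 and 20.3 RPKM, Cyp3a13 measured 9.77 and 9.51 RPKM, and Cyp3a59 measured 2.34 and 2.39 RPKM. No neighbours in this order overlapped between libraries. With GW4064 the order became Cyp3a25, Cyp3a11, Cyp3a59 and Cyp3a13, again without overlap, and Cyp3a25 ranked 29 and 30.

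GRO-seq gave the vehicle order Cyp3a25, Cyp3a11, Cyp3a13 and Cyp3a59 in both genotypes, and the order was the same with GW4064. Cyp3a25 was the most transcribed member in all 4 libraries, but its lead over Cyp3a11 was 2.697-fold in Flox vehicle, 2.18-fold in Flox with GW4064, 2.20-fold in FXR KO vehicle and 1.04-fold in FXR KO with GW4064. In RNA-seq that ratio was 1.27 to 1.4995 in the 4 libraries. Levels in RNA-seq and GRO-seq are densities from different library types and are not compared with each other.

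**Figure D2:**
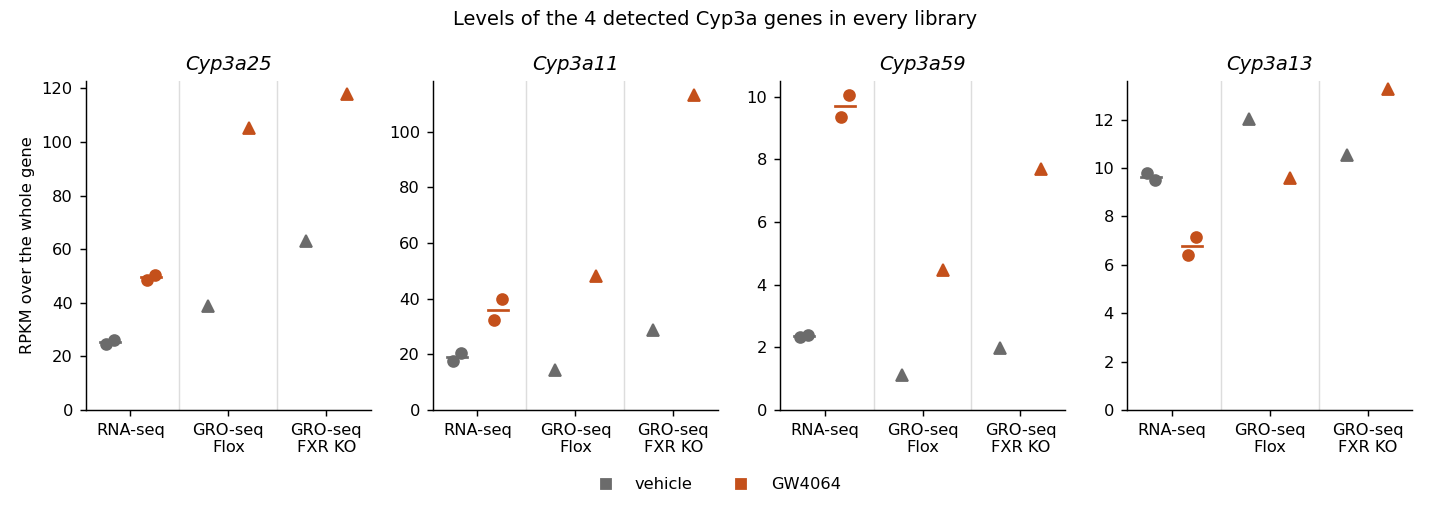
RPKM over the whole gene of the 4 detected Cyp3a genes in every library, grey for vehicle and orange for GW4064. Circles are RNA-seq libraries with a bar at the mean of 2, and triangles are single GRO-seq libraries from Flox and FXR KO livers. Cyp3a25, Cyp3a11 and Cyp3a59 were higher with GW4064 in all 3 settings, and Cyp3a13 was lower in RNA-seq and Flox and higher in FXR KO.

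The question of the RNA-seq comparison was how an hour of FXR agonist changed each gene in wild-type liver. Cyp3a25 and Cyp3a59 rose, while the changes of Cyp3a11, upward, and Cyp3a13, downward, missed the threshold of the main test. Cyp3a25, a steroid- and drug-oxidising member, went from 24.8 and 26.2 RPKM to 48.5 and 50.4 RPKM, or 25.5 ± 1.01 to 49.4 ± 1.39 RPKM (SD, n = 2 libraries per group). The log2 change was 0.95 (SE 0.063), 95% interval 0.78 to 1.13, with an adjusted p of 0.019 (limma, Benjamini-Hochberg over 11408 genes).

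Cyp3a59, the neighbour and near copy of Cyp3a25, went from 2.34 and 2.39 RPKM to 9.35 and 10.1 RPKM. This was the largest rise among the members, with a log2 change of 1.99 (SE 0.063), 95% interval 1.81 to 2.17, and an adjusted p of 0.010 in limma. It ranked 76 from the highest of 11408 genes. Relative to Cyp3a25, Cyp3a59 stood at 0.0944 and 0.0910 in vehicle and at 0.193 and 0.199 with GW4064, so these ratios did not overlap. An exact permutation test of 2 against 2 libraries cannot give a two-sided p below 0.333.

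Cyp3a11 measured 17.5 and 20.3 RPKM in vehicle and 32.3 and 39.7 RPKM with GW4064, and the groups did not overlap. Its log2 change of 0.92 was close to that of Cyp3a25, but its SE was 0.14 and the adjusted p was 0.066 in limma. The 95% interval of its fold change ran from 1.44 to 2.50. With limma-voom on rebuilt reads it was called, with a log2 change of 0.93 and an adjusted p of 0.011.

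Cyp3a13, the member outside the cluster, measured 9.77 and 9.51 RPKM in vehicle and 6.39 and 7.17 RPKM with GW4064. Both GW4064 values lay below both vehicle values. The log2 change was -0.50 (SE 0.079), 95% interval -0.73 to -0.28, with an adjusted p of 0.068 in limma and 0.014 in limma-voom.

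Thus 2 of the 4 members tested were called higher and none lower, where 2.13% of all 11408 genes tested were called higher and 1.15% lower, 3.28% in all. All 3 detected cluster genes had both GW4064 values above both vehicle values, as did 26.0% of genes, and Cyp3a13 had both below, as did 28.1%. At an unadjusted p under 0.05 all 4 members passed, against 21.2% of genes, and limma-voom called 3 higher and 1 lower, against 8.79% called in either direction. The calls of Cyp3a25 and Cyp3a59 rested on all 4 libraries, since leaving out any of them gave adjusted p-values of 0.12 to 0.14 for Cyp3a25 and 0.058 to 0.086 for Cyp3a59 in limma. The log2 changes then stayed at 0.91 to 0.99 and 1.94 to 2.04. Without a filter on low values Cyp3a25 was also not called (adjusted p = 0.14 in limma). These are bulk livers, in which more cells of a type and more RNA per cell cannot be told apart.

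The family as a whole took 22367 and 24109 reads in the vehicle libraries and 40232 and 44569 reads with GW4064, at nearly equal depth. Within the summed RPKM, the share of Cyp3a13 was 18.0% and 16.3% in vehicle and 6.62% and 6.67% with GW4064, while that of Cyp3a59 was 4.30% and 4.08% in vehicle and 9.68% and 9.36% with GW4064. The shares of Cyp3a25 were 45.5% and 44.9% in vehicle and 50.2% and 46.9% with GW4064, and those of Cyp3a11, 32.1% to 37.0%, overlapped between the groups.

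The GRO-seq comparison asked whether the change lay in transcription and how it depended on FXR. In Flox, Cyp3a11 went from 14.4 to 48.3 RPKM, Cyp3a25 from 38.8 to 105 RPKM and Cyp3a59 from 1.11 to 4.46 RPKM. All 3 detected cluster genes were thus higher with GW4064, by 3.36-fold, 2.71-fold and 4.02-fold in rebuilt density. The 95% counting intervals of these folds were 3.25 to 3.47, 2.66 to 2.76 and 3.64 to 4.44.

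Cyp3a13 went from 12.04 to 9.60 RPKM in Flox, a fold of 0.797 (0.761 to 0.835), which is within 1.5-fold. So 3 of the 4 members were past 1.5-fold upward in Flox and none downward, where 6.10% of 10169 genes were past it upward and 6.83% downward. On the log2 scale after adding 0.1 RPKM, the median of all genes was -0.09 in Flox, and Cyp3a59, Cyp3a11 and Cyp3a25 ranked 100, 139 and 195 from the highest. Periportal markers also differed in these libraries, with 4 of 9 past 1.5-fold upward and a summed level of 239 RPKM in vehicle and 405 RPKM with GW4064, and pericentral markers summed to 156 and 116 RPKM. Their part in the Cyp3a values was not tested.

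In the libraries labelled FXR KO the 3 detected cluster genes were again higher with GW4064. Cyp3a11 went from 28.7 to 113 RPKM, a 3.95-fold difference (95% counting interval 3.81 to 4.09). Cyp3a59 went from 1.97 to 7.70 RPKM, or 3.92-fold (3.48 to 4.42), and Cyp3a25 went from 63.2 to 118 RPKM, or 1.87-fold (1.83 to 1.91). Cyp3a13 went from 10.5 to 13.3 RPKM, or 1.26-fold (1.18 to 1.35).

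Again 3 of 4 members were past 1.5-fold upward, and none downward, where 2.61% of genes in FXR KO were past it upward and 3.11% downward. Past 1.5-fold upward in both genotypes were 0.669% of genes, 68 in all, among them these 3 members. The median of all genes in FXR KO was -0.02, and Cyp3a11, Cyp3a59 and Cyp3a25 ranked 111, 117 and 254 from the highest of 10169. In this pair the hepatocyte markers summed to 883 RPKM in vehicle and 837 RPKM with GW4064, and no hepatocyte marker was past 1.5-fold.

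**Figure D3:**
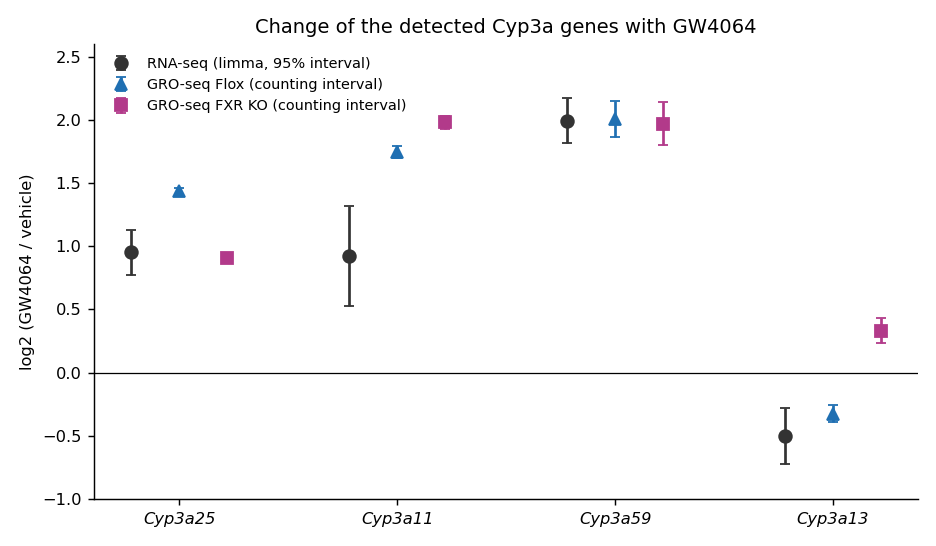
Log2 of GW4064 over vehicle for the 4 detected Cyp3a genes, as limma estimates from RNA-seq (circles, 95% intervals, 2 libraries per group) and as GRO-seq ratios of rebuilt reads in Flox (triangles) and FXR KO (squares) with 95% counting intervals from 1 library per group. Cyp3a59 lies near 2 in all 3, Cyp3a25 and Cyp3a11 lie above 0 in all 3, and Cyp3a13 lies below 0 in RNA-seq and Flox and above 0 in FXR KO.

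The responses of the genotypes were set against each other as the log2 response in FXR KO minus that in Flox. For Cyp3a59 this difference was -0.04 (95% counting interval -0.26 to 0.18), so no difference was detectable at this depth. It was 0.23 (0.16 to 0.30) for Cyp3a11, -0.53 (-0.58 to -0.49) for Cyp3a25 and 0.66 (0.54 to 0.78) for Cyp3a13, all 3 beyond counting error. A ratio below 0 in Flox and above 0 in FXR KO, as Cyp3a13 had, was found for 27.2% of genes. Without replicate libraries the spread between animals is unknown, and these differences have no test.

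Without agonist the 3 detected cluster genes were also higher in the library labelled FXR KO than in Flox. Cyp3a11 stood at 28.7 against 14.4 RPKM (1.99-fold, counting interval 1.91 to 2.08), Cyp3a59 at 1.97 against 1.11 RPKM (1.77-fold, 1.54 to 2.03) and Cyp3a25 at 63.2 against 38.8 RPKM (1.63-fold, 1.59 to 1.67). Cyp3a13 was at 10.5 against 12.04 RPKM (0.874-fold, 0.825 to 0.926). Thus 3 of 4 members were past 1.5-fold upward, against 5.83% of genes, none downward, against 5.77%, and no member was past 2-fold. With GW4064 in both, the folds were 2.35 for Cyp3a11, 1.73 for Cyp3a59, 1.38 for Cyp3a13 and 1.12 for Cyp3a25, and 2 of 4 were past 1.5-fold upward, against 6.46% of genes, and none downward, against 7.74%.

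Other lists moved with this genotype comparison. Of 6 hepatocyte markers, 4 were past 1.5-fold higher in FXR KO vehicle, with a median log2 ratio of 0.68, against 0.74 for the 4 Cyp3a genes and -0.07 for all genes. Genes known to be higher in female liver also stood higher, 5 of 5 past 1.5-fold, and over the 16 rows of that list they summed to 7.23 RPKM in Flox and 25.6 RPKM in FXR KO vehicle. Among them Cyp17a1 was at 1.08 and 8.97 RPKM and Fmo2 at 1.64 and 7.16 RPKM. Cyp3a16, Cyp3a41a, Cyp3a41b and Cyp3a44, near 0 in every library, gave at most 1 read each in FXR KO vehicle. With GW4064 they gave 10, 3, 0 and 5 reads in FXR KO and 6, 1, 0 and 7 reads in Flox. Of 18 PXR and CAR targets, 5 were past 1.5-fold higher and 0 lower, with a median log2 ratio of 0.43. Of 12 male-predominant genes 3 were higher and 3 lower, among them Cyp4a12b at 1.24 RPKM in Flox and 0.135 RPKM in FXR KO and Elovl3 at 10.6 and 1.9 RPKM. The part of these lists, and of the lower depth of the FXR KO libraries, in the Cyp3a values was not tested.

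Of the receptors and factors that govern Cyp3a genes, 18 of 20 were tested in RNA-seq, with 1 called higher, 2 lower and 15 not called. Over all genes tested, 2.13% were called higher and 1.15% lower. Limma-voom called 3 regulators higher and 3 lower, where it called 8.79% of all genes in either direction. Nr0b2 rose from 6.83 and 4.04 RPKM to 31.5 and 30.5 RPKM, a log2 change of 2.54 (adjusted p = 0.037 in limma). Nr1h4, the FXR gene itself, fell by 1.26 in log2 units (limma adjusted p = 0.015), and Rxra, the shared partner receptor, fell by 0.49 (adjusted p = 0.036 in limma). The most abundant members, Cebpb, Cebpa and Hnf4a, had log2 changes of 0.43, -0.02 and 0.19 and were not called. Of 18 regulators measured in GRO-seq, 4 were past 1.5-fold upward with GW4064 in Flox and 6 downward. Over all genes these shares were 6.10% and 6.83%. In FXR KO 3 regulators were past it upward and 0 downward, where 2.61% and 3.11% of all genes were.

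Nr1i2, which encodes PXR, measured 5.64 and 4.03 RPKM in vehicle and 10.1 and 9.25 RPKM with GW4064. These groups did not overlap, and its log2 change of 1.00 had an adjusted p of 0.091 in limma and 0.020 in limma-voom. Its GRO-seq level went from 5.50 to 17.8 RPKM in Flox, 3.23-fold, and from 3.42 to 6.70 RPKM in FXR KO, 1.96-fold. Nr1i3, which encodes CAR, had a log2 change of -0.25 (adjusted p = 0.16 in limma) and GRO-seq folds of 0.841 and 1.19.

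The list of other known PXR and CAR targets, 28 genes, had 19 tested in RNA-seq, of which 3 rose, none fell and 16 were not called. Of all genes tested, 2.13% were called higher and 1.15% lower. The median log2 change was 0.07, against a median of 0.94 for the 4 detected Cyp3a genes and -0.003 for all genes. Cyp2c29, a P450 of the Cyp2c family, rose by 1.24 on the log2 scale (adjusted p = 0.041 in limma), Papss2, which makes the sulfate donor for conjugation, by 0.84 (0.018), and Gadd45b, a stress-responsive gene, by 2.19 (0.010). The most abundant, Ugt1a1, Abcc2 and Gstm1, which serve glucuronidation, export and glutathione conjugation, had changes of 0.18, -0.01 and 0.07.

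In GRO-seq, 6 of the 18 measured targets were past 1.5-fold upward in Flox and 1 downward, where 6.10% and 6.83% of all genes were. In FXR KO 9 of 18 were past it upward and 0 downward, where 2.61% and 3.11% of all genes were. The median log2 ratios of the targets were 0.26 in Flox and 0.58 in FXR KO. Cyp2c29 went from 16.1 to 39.9 RPKM in Flox and from 24.0 to 151 RPKM in FXR KO, or 2.48-fold and 6.27-fold. Cyp2b10, the usual readout of CAR and named after its values were seen, went from 1.06 to 2.24 RPKM in Flox and from 3.59 to 24.8 RPKM in FXR KO. In RNA-seq its values were 1.09 and 1.01 RPKM in vehicle and 2.44 and 1.22 RPKM with GW4064, and it was not called.

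**Figure D4:**
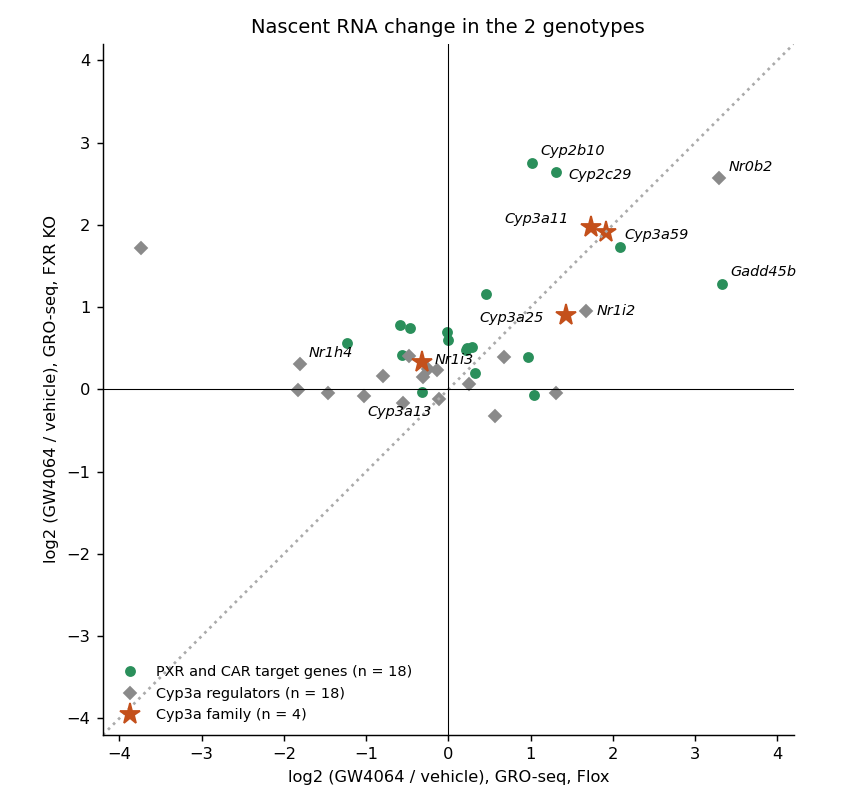
GRO-seq log2 ratio of GW4064 to vehicle (0.1 RPKM added to both) in Flox (x axis) and FXR KO (y axis), with 1 library per group. Stars are the 4 detected Cyp3a genes, green circles 18 PXR and CAR targets and grey diamonds 18 Cyp3a regulators, and the dotted line marks equal ratios. Cyp3a11 and Cyp3a59 lie near the line, Cyp3a25 below it, and Cyp2c29 and Cyp2b10 above it. The FXR KO value of Nr0b2 rests on 2 and 20 reads.

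The P450 enzymes need electrons and haem. Of 14 genes for these supplies, 1 rose in RNA-seq and 13 were not called, where 2.13% of all genes tested were called higher. Por, the reductase that passes electrons to all microsomal P450 enzymes, measured 12.1 RPKM in both vehicle libraries and 17.5 and 18.0 RPKM with GW4064, a log2 change of 0.55 (adjusted p = 0.031 in limma). Its GRO-seq folds were 1.83 in Flox and 1.30 in FXR KO. Alas1, the rate-limiting enzyme of haem synthesis in liver, had a log2 change of 1.02. Its adjusted p was 0.054 in limma and 0.0076 in limma-voom, and its GRO-seq folds were 1.58 and 2.01. Pgrmc1, a haem-binding partner of P450 enzymes, had a log2 change of 0.004.

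Genes with the profile most like each member were found by the distance between log2 values over the 8 libraries, centred within each assay, over 6454 genes whose means reached 1 RPKM in RNA-seq and in GRO-seq alike. Nearest to Cyp3a11 were Cyp2c29 at 0.702, Cyp3a25 at 1.06 and Cyp3a59 at 1.14, where the median distance of all genes was 2.45. Nearest to Cyp3a25 were Bhlhe40 at 0.435, Slc15a4 at 0.522 and Glt1d1 at 0.640 (median 1.68), and Cyp3a11 was number 50. Nearest to Cyp3a13 were Tle1 at 0.187, Zhx2 at 0.192 and Slc25a23 at 0.221 (median 0.723). Counted from Cyp3a13, Cyp3a11 was number 6379 and Cyp3a59 number 6422 of 6454, while counted from Cyp3a11, Cyp3a13 was number 4497 at a distance of 2.55.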

How the data were processed

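Liver RNA-seq (4 libraries) and GRO-seq (4 libraries) were read from the deposited table of RPKM values. The authors mapped reads to mm10 with STAR (2.7.3a in the submitters' processing notes, which also name bcl2fastq and FastQC) and quantified gene rows with HOMER as RPKM; strand settings are not given in the sources used here. RNA-seq libraries came from 4 mice per treatment, pooled by 2, and p-values measure the spread between these pools. Reads were rebuilt as RPKM times row length times library total, and 100% of the testable values lay within 0.15 of a whole number.

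Genes averaging 0.5 RPKM or more over the RNA-seq libraries were fitted with limma 3.58.1 (R 4.3.3) on log2(RPKM + 0.1), eBayes with trend, with treatment as the only term, and called at a Benjamini-Hochberg adjusted p under 0.05. Fold changes on this scale understate the change of low genes. GRO-seq ratios, with 1 library per group, have no test. They were counted past 1.5-fold only if either library held 20 or more reads, and carry 95% counting intervals (exact conditional, or a normal approximation for the difference between genotypes). The GRO-seq contrasts share their libraries. Promoters came from RefSeq start sites (GRCm38.p6) and transcripts from GENCODE, and they were aligned and searched with Biopython 1.88. Scripts were tested on simulated data.

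The members and the 14 gene lists were chosen with earlier results of these data known. Named genes are all members, Nr1h4, Nr0b2, Nr1i2, Nr1i3, Rxra, Por, the called and the 3 most abundant members of each list, the 3 genes nearest in profile to Cyp3a11, Cyp3a13 and Cyp3a25, and the rows next to the genes. A gene that meets this rule is not reported here by name. Profiles left out rows under 300 bases, predicted genes and RIKEN clones. Alternatives were pseudocounts, filters, normalizations, eBayes settings, the replicate number as a block, each RNA-seq library left out, limma-voom on rebuilt reads and a 2-fold threshold.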

Additional observations from a re-analysis of the deposited data

Results flagged for a closer look

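Cyp3a13 moved in opposite directions with GW4064 in the GRO-seq genotypes. Its log2 ratio, after adding 0.1 RPKM, was -0.32 in Flox (4894 and 2916 reads in vehicle and GW4064) and 0.33 in the libraries labelled FXR KO (1552 and 1927 reads). With 1 library in each group the difference was not tested against the spread between animals. A ratio below 0 in Flox and above 0 in FXR KO was found for 27.2% of the 10169 genes measured, so this pattern of signs was common in these libraries.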

How the results depend on the processing

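No result of the Cyp3a genes changed direction under any alternative that was run. The main limma fit called 374 of 11408 genes, limma-voom called 1003 (314 of them shared), and leaving out 1 library at a time called 0 to 43 genes, with 43 only without the vehicle library of replicate 1 and 1590 to 1958 genes at an unadjusted p under 0.05. The number of Cyp3a genes called was 2 in the main fit, 1 without a filter, 4 with limma-voom and 0 without any 1 library (range 0 to 0). The replicate numbers are shared across treatments in the labels, but deviations of same-numbered libraries had a correlation of -0.02 over 11408 genes, so the numbers were not taken to pair the mice. With the replicate number as a block limma called 0 genes (2327 at an unadjusted p under 0.05) and 0 Cyp3a genes, with adjusted p-values of 0.076 for Cyp3a25 and 0.073 for Cyp3a59. Fits with a block or a library left out have fewer degrees of freedom, and the cause of the other differences was not tested.

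Over all alternatives the adjusted p ran from 0.011 to 0.25 for Cyp3a11, 0.014 to 0.28 for Cyp3a13, 0.0026 to 0.14 for Cyp3a25 and 0.00035 to 0.086 for Cyp3a59. Cyp3a11 was also called with robust eBayes (adjusted p = 0.0495) and Cyp3a13 with quantile normalization (0.045). In GRO-seq, the count of members higher in FXR KO vehicle was 3 at 1.5-fold and 0 at 2-fold, and an added 1 RPKM lowered the log2 ratio of Cyp3a59 from 1.92 to 1.37 in Flox and from 1.92 to 1.55 in FXR KO. With 1 library per group, the spread between animals behind the genotype comparison is unknown, and the depth of each library sets only the counting intervals.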

Other observations

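The rows next to the Cyp3a genes gave low values. Zscan25, the row before the cluster, measured 1.58 and 1.52 RPKM in vehicle and 1.76 and 1.78 RPKM with GW4064 in RNA-seq, and was not called (adjusted p = 0.18 in limma). 1700001J03Rik, the row after the cluster, had 0 to 3 reads per library. Beside Cyp3a13, Pilrb2 measured 0.127 to 0.509 RPKM and Gjc3 0.688 to 1.32 RPKM over the 8 libraries, and Gjc3 was not called.

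Sex-biased and zonal hepatocyte genes gave 4 calls in the main limma fit of RNA-seq, where 3.28% of all genes tested were called. Of 13 male-predominant genes tested, Cyp4a12b, a fatty acid hydroxylase, rose by 1.34 on the log2 scale (adjusted p = 0.019 in limma) and Bcl6, a transcriptional repressor, fell by 1.19 (adjusted p = 0.045 in limma), while Cyp2d9, Elovl3 and Mup20 were not called. None of 6 female-predominant genes tested was called in limma and 1 was with limma-voom, and their most abundant members were Cyp17a1, Acot3 and Fmo2. Among periportal markers 1 of 10 rose, Hal, the histidine-degrading enzyme, by 1.21 (adjusted p = 0.014 in limma), and Pck1 and Sds were not called. Among pericentral markers 1 of 9 fell, Slc1a2, a glutamate transporter, by 0.59 (adjusted p = 0.038 in limma), and Cyp2e1, Glul and Cyp1a2 were not called. With limma-voom, 2 pericentral markers were called lower, among them Cyp2e1 (adjusted p = 0.014), and 3 periportal markers higher, among them Sds (0.027). That fit also called 1 male-predominant gene higher and 2 lower, and 8.79% of all genes in either direction.

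Markers of hepatocytes and of non-hepatocyte cells had 0 calls in limma, where 3.28% of all genes tested were called. The markers tested were 6 of hepatocytes, 6 of Kupffer, 8 of stellate, 8 of sinusoidal endothelial, 2 of bile duct and 4 of other blood cells. Among so few genes, 0 calls do not show that cell composition was unchanged. With limma-voom 0 markers of Kupffer, stellate, sinusoidal endothelial, bile duct or other blood cells were called, and 1 hepatocyte marker was called lower. That fit called 8.79% of all genes. The most abundant of the non-hepatocyte markers were C1qa, Clec4f and Cd5l of Kupffer cells, Ecm1, Lrat and Dcn of stellate cells, Clec4g, Stab1 and Lyve1 of sinusoidal endothelium, Spp1, Sox9 and Krt19 of bile duct cells, and Hba-a1, Hbb-bs and S100a8 of blood. Kupffer markers summed to 25.3 to 28.2 RPKM in vehicle and 27.5 to 28.3 RPKM with GW4064.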
